A study of Mus musculus with 9 samples.

Results

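The genes described are 10 receptors for small molecules and peptides that are released in inflammation or by platelets, mast cells and nerves: the bradykinin receptors Bdkrb1 and Bdkrb2, the serotonin receptors Htr1b, Htr2a and Htr2b, the histamine receptors Hrh1 and Hrh2, the tachykinin receptors Tacr1 and Tacr2, and the leukotriene receptor Cysltr1. They were chosen by gene symbol, and all 10 were found among the 21049 genes of the table. RNA sequencing was done on smooth muscle cells sorted from mouse lung, with 3 libraries in each of 3 groups, so that the pulmonary smooth muscle types could be compared directly. The group BSMC held bronchial cells of NVSMC-effector mice, with the genotype Chrm2/Acta2-CreER/R26-GFP. The group PASMC held pulmonary arterial cells of ASMC-effector mice, with the genotype Cspg4/Acta2-CreER/R26-GFP. The group total_SMC, titled SmMCll in the labels, held pulmonary smooth muscle without selection by vessel or airway, so also that of veins, from mice with the transgene tg-Acta2-GFP. All 9 libraries were labelled tamoxifen, at 0.75 mg per 10 g body weight on 3 days. The first pair of groups shared the Acta2-CreER and R26-GFP alleles, and the last group was marked by the Acta2 promoter alone, so any cell in which that promoter is active can enter it. Since no mouse line was used in more than 1 group, cell population, mouse line and sort cannot be told apart. The labels give no age, nor whether each replicate was an animal of its own, and the p-values cover only the spread between libraries, which may be technical.

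All of these receptors are G protein-coupled. Bdkrb1, Bdkrb2, Htr2a, Htr2b, Hrh1, Tacr1, Tacr2 and Cysltr1 signal mainly through Gq, phospholipase C and calcium release, the route by which agonists make smooth muscle contract, whereas Htr1b couples to Gi and Hrh2 to Gs. In the lung, serotonin is known as a constrictor of pulmonary arteries, and histamine, kinins, tachykinins and cysteinyl leukotrienes are known as agonists of airway smooth muscle. Bdkrb2 is the constitutive receptor for bradykinin, and Bdkrb1, which binds kinins that have lost their last arginine, is known as an inducible receptor of injured or inflamed tissue.

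Values are the authors' normalized read counts per gene. Normalized totals ran from 7.98 to 9.41 M per library, and the depth implied by the spacing of the values ran from 6.39 to 10.02 M reads, lowest in BSMC replicates 1 and 3. The smooth muscle list (Acta2, Myh11 and 5 others) summed to 3492 to 3896 CPM (the share of a library's total, scaled to the same total for all) in BSMC, 3336 to 3794 in PASMC and 2568 to 2930 in total_SMC. Marker genes did not all follow the labels: Hhip and Lgr6, markers of airway smooth muscle, were higher in the libraries labelled PASMC than in those labelled BSMC, by 1.27 and 0.93 on the log2 scale (adjusted p = 9.59e-06 and 0.000404 in limma). The other 4 of the 6 airway genes were not called, with values from -0.27 (Pcp4l1) to -0.10 (Nog), and the list median was -0.17. Of 5 vascular markers, Rgs5 was higher in PASMC (0.83, adjusted p = 0.0185 in limma), a call lost with any 1 of the PASMC libraries left out (up to 0.0577), and 4 were not called. The groups are named by their labels throughout. BSMC replicate 2 stood apart from the other BSMC libraries, at -68.1 on the first principal component against -114.0 and -123.6. In bulk samples, fewer cells that express a gene and less RNA per cell cannot be told apart.

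The kinin receptor genes were higher in total_SMC than in both other groups, the serotonin receptor Htr1b was highest in PASMC, and Htr2a and Cysltr1 were present in all 9 libraries at levels that overlapped between groups or missed the threshold. Hrh2, Htr2b, Tacr1 and Tacr2 stayed at 21 or less in every library, and Hrh1 ran from 0 to 51. Of the 10 genes, 8 passed the filter on low values (at least 10 in at least 3 libraries) and were tested, and Hrh2 and Tacr2 were not. A gene is called higher or lower at a Benjamini-Hochberg adjusted p under 0.05 in limma, over all 15647 genes tested.

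The upstream 250 bases of Bdkrb2, Htr2a and Htr1b are printed here in the direction of transcription from RefSeq (build GRCm38.p6, whereas the expression table uses mm39). Htr2a was called in no comparison. The promoter table held 8 of the 10 receptors; Bdkrb1 and Cysltr1 were the other two. Each was searched on both strands for the CArG box bound by serum response factor, for the E-box CANNTG, for the TATA box TATAAA, for the AP-1 motif TGANTCA and for the cAMP response element TGACGTCA. Any match would stand in capitals.
Bdkrb2 (chr12:105562922-105563171, plus strand): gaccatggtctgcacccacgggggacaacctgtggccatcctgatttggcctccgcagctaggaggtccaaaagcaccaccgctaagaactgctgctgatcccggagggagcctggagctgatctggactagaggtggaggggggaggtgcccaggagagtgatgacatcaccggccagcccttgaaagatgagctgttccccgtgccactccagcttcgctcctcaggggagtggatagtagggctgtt
Htr2a (chr14:74640624-74640873, plus strand): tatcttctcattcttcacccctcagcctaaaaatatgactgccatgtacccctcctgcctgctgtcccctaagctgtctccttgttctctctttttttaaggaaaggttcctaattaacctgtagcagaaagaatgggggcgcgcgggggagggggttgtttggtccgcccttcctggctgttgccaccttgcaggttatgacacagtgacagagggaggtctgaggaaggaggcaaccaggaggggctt
Htr1b (chr9:81633833-81634082, minus strand): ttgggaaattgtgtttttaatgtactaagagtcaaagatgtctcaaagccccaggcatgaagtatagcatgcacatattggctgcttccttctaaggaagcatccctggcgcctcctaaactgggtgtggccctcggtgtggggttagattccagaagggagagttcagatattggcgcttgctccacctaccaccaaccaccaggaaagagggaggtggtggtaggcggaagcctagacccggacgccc
None of the 5 motifs was found in these 3 windows. For Bdkrb2 and Htr1b, the bases just after the window were found whole in no GENCODE vM21 transcript. Their windows may therefore not end at a transcript start of that annotation. Among 32851 windows of the same length before gene starts, 1.47% held a CArG box, 66.2% CANNTG, 12.4% TATAAA, 6.75% TGANTCA and 1.55% TGACGTCA. The missing matches describe only these letters in these windows. The GC content was 60.8% for Bdkrb2, 52.8% for Htr2a and 52.4% for Htr1b, against a median of 52.4% over all windows.

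Bdkrb1 (ENSMUSG00000041347, mm39 chromosome 12, 105569344 to 105571687, plus strand) was at 98, 64 and 69 in the 3 BSMC libraries, at 201, 183 and 244 in PASMC, and at 1528, 1130 and 1283 in total_SMC. No library of 1 group reached the range of another, and the order BSMC, PASMC, total_SMC held throughout. The means were 77.0 ± 18.4, 209 ± 31.3 and 1314 ± 201 (SD, n = 3 each), so that total_SMC was 6.28 times PASMC and 17.1 times BSMC. On the log2(value + 1) scale Bdkrb1 was higher in total_SMC than in PASMC by 2.64 (SE 0.21, adjusted p = 1.64e-05 in limma) and than in BSMC by 4.09 (SE 0.21, adjusted p = 2.06e-07 in limma). PASMC was in turn above BSMC, by 1.45 (SE 0.21, adjusted p = 0.000644 in limma). These 3 calls held in all 19 alternative fits, each library left out in turn included. Of all genes tested, 6.75% were called higher in total_SMC than in both other groups.

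An upper limit on counts per length may bear on Bdkrb1, and its presence was not tested. Over 15942 protein-coding genes with an exon length, the densest gene of a library held 1.89 to 1.98 implied reads per exonic base, nearly the same number in every library although depth differed. Acta2, the smooth muscle actin, was at 1.34 to 1.67 and Col1a1 at 1.06 to 1.48 in all 9 libraries. Dcn (0.502 to 0.669) and Tagln (0.135 to 0.266) lay lower. Bdkrb1 had 1.16, 0.874 and 0.848 in total_SMC, above 97.7 to 98.9% of genes, against 0.147 to 0.177 in PASMC and 0.0376 to 0.0611 in BSMC. No other receptor exceeded 0.133. Whether such a limit changed the size of the Bdkrb1 differences was not tested, and the same holds for sums of abundant marker genes.

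Bdkrb2 (ENSMUSG00000021070, chromosome 12, 105529485 to 105561496, plus strand) followed the same order of group means at a lower level. It was at 64, 67 and 24 in the BSMC libraries, 95, 84 and 73 in PASMC and 465, 355 and 413 in total_SMC. The lowest total_SMC library lay far above the highest PASMC library, while PASMC and BSMC were separated by a gap of only a few counts. Means were 51.7 ± 24.0, 84.0 ± 11 and 411 ± 55.0 (SD, n = 3 each). Bdkrb2 was higher in total_SMC than in PASMC by 2.28 (SE 0.35, adjusted p = 0.000996 in limma) and than in BSMC by 3.09 (SE 0.35, adjusted p = 5.77e-05 in limma), and both calls held in all 19 alternatives. Between PASMC and BSMC it was not called (0.82, 95% interval 0.05 to 1.59, adjusted p = 0.109 in limma), and without BSMC replicate 2 it was (1.07, adjusted p = 0.0331).

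The kinin receptor genes lie side by side on the same strand, with 7847 bases between the end of Bdkrb2 and the start of Bdkrb1. Per kb of exon, Bdkrb1 was the more abundant of the pair in every library: 4.05, 2.52 and 7.60 times Bdkrb2 in BSMC, 5.59, 5.76 and 8.83 times in PASMC, and 8.68, 8.41 and 8.21 times in total_SMC. The PASMC ratios overlapped with those of both other groups, while every BSMC ratio lay below every total_SMC ratio. Within 200 kb of the pair the table held 6 other genes, looked up after the receptor values were seen. Of the 5 that were tested, 0 were called between total_SMC and PASMC, where 16.2% of all genes were. Between total_SMC and BSMC, where 23.7% of all genes were called higher, 4 of the 5 were higher, namely D430019H16Rik (1.31), Atg2b (1.97), Ak7 (2.28) and Papola (0.64). The nearest, Atg2b, a lipid transfer protein of autophagy, was at 115 ± 39.7 in the BSMC libraries, 305 ± 45.2 in PASMC and 439 ± 38.7 in total_SMC. It was higher than in BSMC in both other groups (1.44 and 1.97, adjusted p = 0.0015 and 8.75e-05 in limma), and total_SMC and PASMC differed by 0.53 (adjusted p = 0.176). Gskip, on the far side of Atg2b, was at 712 ± 67.3, 570 ± 60.2 and 676 ± 61.6 with no call.

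**Figure D1:**
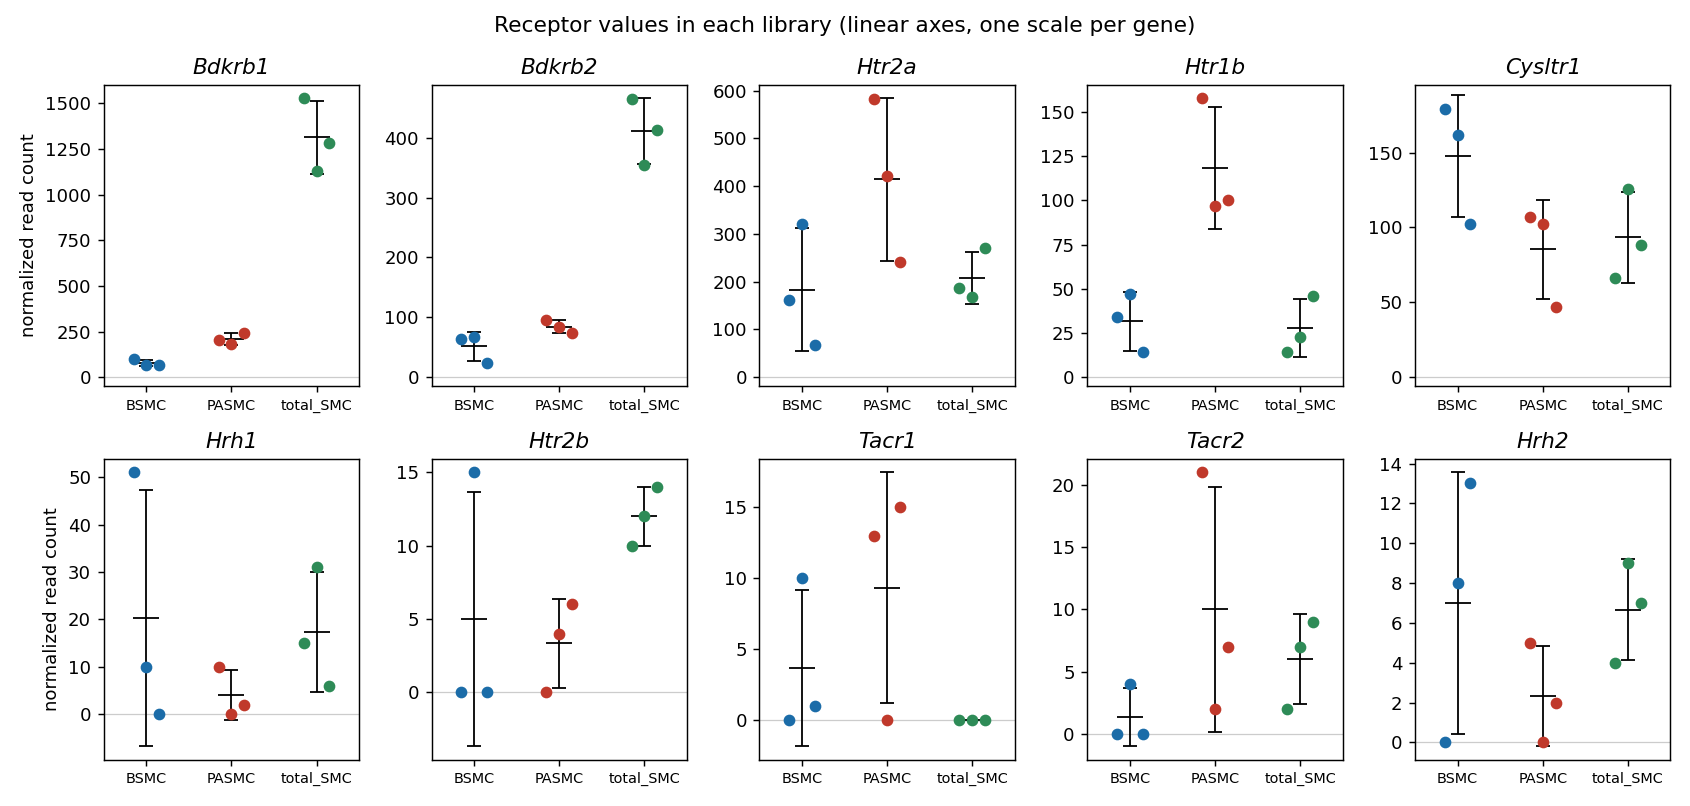
Normalized read count (linear axis, one scale per gene) of the 10 receptors in each library of BSMC, PASMC and total_SMC. Points are libraries, in the order of their replicate number, and bars give the mean and SD (n = 3); the total_SMC libraries of Bdkrb1 sit between 1130 and 1528, above all others, and the PASMC libraries of Htr1b between 97 and 158.

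Sums of cell type marker lists are given here beside the kinin receptors, and their part in the kinin receptor result was not tested. The fibroblast list (10 of 10 genes in the table, Col1a2 and Col1a1 the most abundant) summed to 3497 to 3896 CPM in BSMC, 4087 to 4522 in PASMC and 5089 to 5648 in total_SMC, the same order as Bdkrb1 and without overlap. In it 3 genes were called higher and 1 lower in total_SMC than in PASMC, and 5 higher and 0 lower than in BSMC. Pdgfra, Pi16 and Scara5 were called higher in total_SMC than in both other groups, and Col1a1, Col1a2, Dcn and Inmt in no comparison. The gene lower than in PASMC was Npnt, at 5912 ± 356 in PASMC and 3828 ± 353 in total_SMC. The mesothelial list (6 of 6 genes, Upk3b and Msln the most abundant) summed to 67.7 to 167 CPM in BSMC, 28.4 to 47.8 in PASMC and 587 to 738 in total_SMC. This mesothelial list ran in another order than Bdkrb1, which was higher in PASMC than in BSMC. The endothelial list (8 of 8 genes) summed to 1004 to 1098, 792 to 990 and 1351 to 1680 CPM. It too was lowest in PASMC, unlike Bdkrb1. None of these 3 lists had a member at 0 in a whole group. The smooth muscle sums given above were lowest in total_SMC without overlap, where 3 of the 7 genes were lower than in PASMC, 4 lower than in BSMC and 0 higher than in either. Over all genes, 6.83% were called lower in total_SMC than in PASMC and 18.2% lower than in BSMC, and 9.39% and 23.7% higher. The vascular smooth muscle list (5 of 6 genes in the table) was also lowest in total_SMC, at 928 to 1062 CPM in BSMC, 992 to 1052 in PASMC and 458 to 523 in total_SMC. So was the airway list, at 1524 to 1779, 2140 to 2193 and 1222 to 1307 CPM in the same order.

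Htr1b, the Gi-coupled serotonin receptor known to add to constriction of pulmonary arteries (ENSMUSG00000049511, chromosome 9, 81510344 to 81515881, minus strand), was at 158, 97 and 100 in PASMC. It was at 34, 47 and 14 in BSMC and at 14, 23 and 46 in total_SMC. All PASMC libraries lay above all others, and BSMC and total_SMC covered nearly the same range. PASMC averaged 118 ± 34.4, which was 3.74 times BSMC (31.7 ± 16.6) and 4.28 times total_SMC (27.7 ± 16.5; SD, n = 3 each). Htr1b was higher in PASMC than in BSMC by 1.99 (SE 0.51, adjusted p = 0.0183 in limma) and lower in total_SMC than in PASMC by -2.18 (SE 0.51, adjusted p = 0.0124 in limma). Of all genes tested, 1.3% were called higher in PASMC than in both other groups, and 6.19% higher in BSMC than in both, a pattern that none of the receptors had. Between total_SMC and BSMC the difference was -0.19 (95% interval -1.31 to 0.93, adjusted p = 0.781 in limma). The calls rested on single libraries: the first was lost without PASMC replicate 1 (adjusted p = 0.0845), and the second without PASMC replicate 1 (0.0589) or total_SMC replicate 1 (0.061) or 2 (0.0504).

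Htr2a, the Gq-coupled serotonin receptor of vascular smooth muscle (ENSMUSG00000034997, chromosome 14, 74878280 to 74946934, plus strand), was at 162, 321 and 67 in the BSMC libraries, 582, 421 and 241 in PASMC and 187, 167 and 270 in total_SMC. Most PASMC libraries were the highest, but the lowest of them lay inside the range of the other groups. Its means were 183 ± 128, 415 ± 171 and 208 ± 54.6 (SD, n = 3 each). The difference between PASMC and BSMC was 1.35 (SE 0.48, 95% interval 0.30 to 2.41, adjusted p = 0.0639 in limma), that between total_SMC and PASMC -0.93 (95% interval -1.99 to 0.12, adjusted p = 0.243), and that between total_SMC and BSMC 0.42 (95% interval -0.64 to 1.48, adjusted p = 0.498). None passed. The first passed with BSMC replicate 2 left out (1.89, adjusted p = 0.00524) and with PASMC replicate 3 left out (1.70, adjusted p = 0.0447), or with array weights (1.51, adjusted p = 0.025), and was 0.77 without BSMC replicate 3. The second passed when only PASMC and total_SMC were fitted (-0.93, adjusted p = 0.0289) and with array weights (-0.86, adjusted p = 0.0354). Per kb of exon, Htr2a was above Htr1b in every library, at 2.03 to 3.66 times Htr1b in PASMC, 4.02 to 5.76 times in BSMC and 4.95 to 11.3 times in total_SMC.

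Htr2b, the Gq-coupled serotonin receptor linked to pulmonary hypertension (ENSMUSG00000026228, chromosome 1, 86026748 to 86039692, minus strand), was low: 0, 15 and 0 in BSMC, 0, 4 and 6 in PASMC, and 10, 12 and 14 in total_SMC. The total_SMC libraries were all above the PASMC libraries, and BSMC replicate 2 was the highest of all. It was not called (total_SMC against PASMC 1.98, 95% interval -0.43 to 4.39, adjusted p = 0.283 in limma; total_SMC against BSMC 2.36, 95% interval -0.05 to 4.77, adjusted p = 0.104; PASMC against BSMC 0.38, adjusted p = 0.82, although the means were 3.3 in PASMC and 5.0 in BSMC). Without BSMC replicate 2 the difference between total_SMC and BSMC passed (adjusted p = 0.00787 in limma), where the rest of the BSMC libraries were listed at 0. Htr2b passed the filter only with its total_SMC values.

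Cysltr1, the receptor for cysteinyl leukotrienes (ENSMUSG00000052821, chromosome X, 105617952 to 105647285, minus strand), was at 179, 162 and 102 in the BSMC libraries, 107, 102 and 47 in PASMC and 66, 126 and 88 in total_SMC. The groups overlapped in every comparison, with the BSMC mean the highest (148 ± 40.5, against 85.3 ± 33.3 and 93.3 ± 30.4; SD, n = 3 each). The differences were -0.83 between PASMC and BSMC (95% interval -1.65 to -0.02, adjusted p = 0.12 in limma), -0.67 between total_SMC and BSMC (95% interval -1.48 to 0.15, adjusted p = 0.167) and 0.17 between total_SMC and PASMC (95% interval -0.65 to 0.98, adjusted p = 0.843). Leukocytes are known to express Cysltr1, and the macrophage and monocyte list (8 of 8 genes, Lyz2 and Laptm5 the most abundant) summed to 695 to 1005 CPM in BSMC, 197 to 208 in PASMC and 54.4 to 83.6 in total_SMC. Lyz2 alone was at 1670 to 1843 in PASMC. There Ptprc, Mrc1 and Cybb of that list were at 0 in all 3 libraries, while Cd68 was at 8, 28 and 25 and Csf1r at 2, 1 and 9. The part of leukocytes in the Cysltr1 values was not tested.

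Hrh1, the Gq-coupled histamine receptor of airway smooth muscle (ENSMUSG00000053004, chromosome 6, 114374897 to 114460257, plus strand), was at 51, 10 and 0 in the BSMC libraries, 10, 0 and 2 in PASMC and 15, 31 and 6 in total_SMC. Libraries of 1 group differed more than the groups did. Its difference was -1.37 between PASMC and BSMC (95% interval -4.22 to 1.47, adjusted p = 0.452 in limma), 2.25 between total_SMC and PASMC (95% interval -0.59 to 5.10, adjusted p = 0.305) and 0.88 between total_SMC and BSMC (95% interval -1.96 to 3.73, adjusted p = 0.602). The last goes against the means, 17.3 in total_SMC and 20.3 in BSMC, and a BSMC library was at 0. Hrh2, the Gs-coupled histamine receptor (ENSMUSG00000034987, chromosome 13, 54346148 to 54390199, plus strand), was at 0, 8 and 13, then 5, 0 and 2, then 4, 9 and 7 in the same order of groups. It reached 10 in 1 library and was not tested. A value of 0 allows up to 3 reads, which is 2.59 to 3.84 on the scale of these values, and this limit covers counting error only.

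Of the tachykinin receptors, Tacr1, the receptor for substance P (ENSMUSG00000030043, chromosome 6, 82379315 to 82537085, plus strand), was at 0, 10 and 1 in BSMC, at 13, 0 and 15 in PASMC, and listed at 0 in all 3 total_SMC libraries. A PASMC library was at 0 as well, and the gene was not called in any comparison (adjusted p = 0.508 in limma between PASMC and BSMC, 0.181 between total_SMC and PASMC, and 0.328 between total_SMC and BSMC). Without PASMC replicate 2, the library at 0, total_SMC against PASMC passed (adjusted p = 0.04). Tacr2, the receptor for neurokinin A (ENSMUSG00000020081, chromosome 10, 62088217 to 62101769, plus strand), was at 0, 4 and 0 in the BSMC libraries, 21, 2 and 7 in PASMC and 2, 7 and 9 in total_SMC. Only PASMC replicate 1 exceeded 10, and no test was made under the filter. Tested without a filter, Tacr2 and Hrh2 were not called in any comparison (adjusted p from 0.099 to 0.874).

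In counts, PASMC against BSMC gave 2 of the 8 tested receptors higher (Bdkrb1 and Htr1b) and 0 lower, where 22.1% of all tested genes were called in either direction, 13.2% higher and 8.88% lower. Total_SMC against PASMC gave 2 higher (Bdkrb1 and Bdkrb2) and 1 lower (Htr1b), where 16.2% of all genes were called, 9.39% higher and 6.83% lower. Total_SMC against BSMC gave 2 higher (Bdkrb1 and Bdkrb2) and 0 lower, where 41.9% were called, 23.7% higher. In the same order, the groups did not overlap for 3, 4 and 2 of the 8 receptors, against 35.2%, 40.5% and 50.5% of all tested genes. The receptors' share called was near the background in the first comparison and below it in the last. The 3 comparisons share their groups and are not independent. The first count was 4 without BSMC replicate 2 and 1 without PASMC replicate 1.

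**Figure D2:**
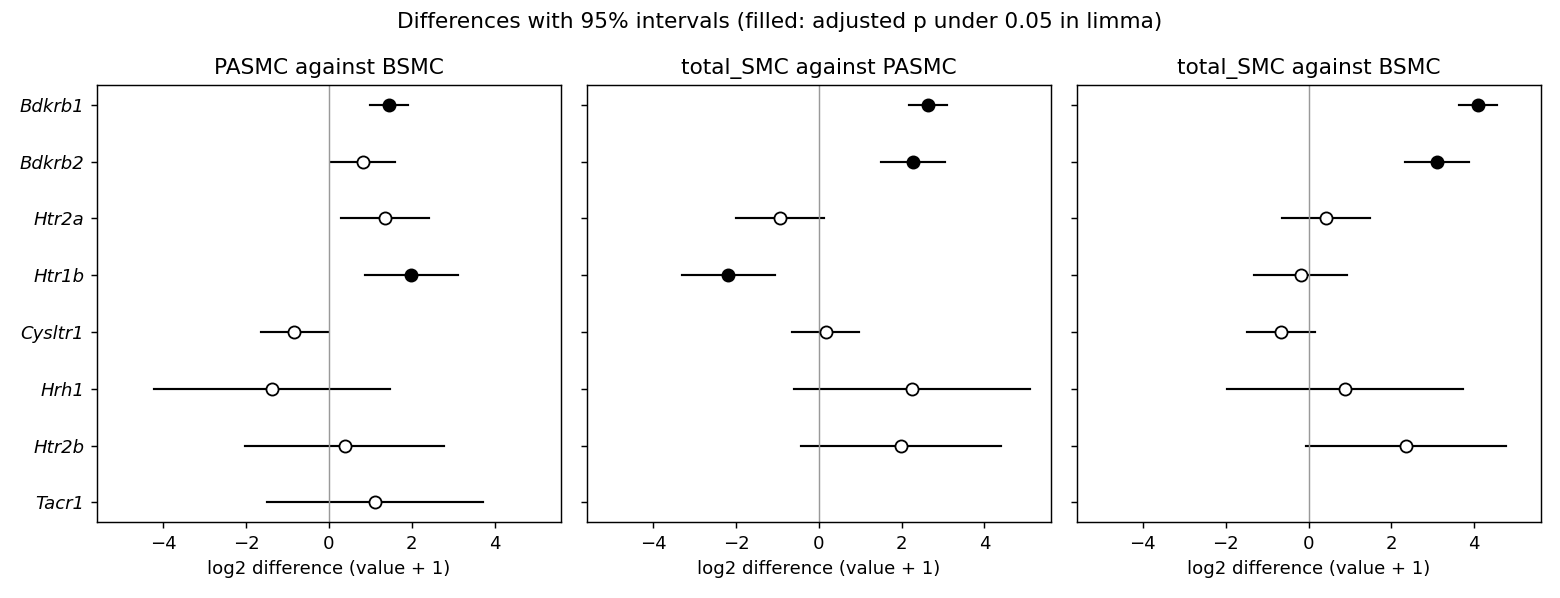
Differences on the log2(value + 1) scale with 95% intervals for the 8 tested receptors in the 3 comparisons, with filled points for an adjusted p under 0.05 in limma. Tacr1 is left out where total_SMC, listed at 0, is compared; Bdkrb1 is filled in all 3 panels, at 1.45, 2.64 and 4.09.

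Levels of different genes were compared per kb of exon, the exon length being the union of all exons in GENCODE vM21. In BSMC the order was Bdkrb1 (53.7 ± 12.8 normalized counts per kb), Htr2a (32.7 ± 22.9), Cysltr1 (28.7 ± 7.87), Bdkrb2 (13.6 ± 6.33) and Htr1b (6.70 ± 3.52), followed by the 5 low genes at 4.57 or less. Bdkrb1 and Htr2a, and likewise Htr2a and Cysltr1, differed by less than the SD of Htr2a. In PASMC it was Bdkrb1 (146 ± 21.8), Htr2a (74.0 ± 30.4), Htr1b (25.0 ± 7.28), Bdkrb2 (22.2 ± 2.90) and Cysltr1 (16.6 ± 6.47), where Htr1b, Bdkrb2 and Cysltr1 lay within about an SD of their neighbour. In total_SMC it was Bdkrb1 (915 ± 140), Bdkrb2 (108 ± 14.5), Htr2a (37.1 ± 9.74), Cysltr1 (18.2 ± 5.90) and Htr1b (5.86 ± 3.49). Bdkrb1 had the highest mean per kb in each group, and by unscaled counts Htr2a had it in BSMC and PASMC.

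The make-up of the summed receptor level shifted accordingly. Bdkrb1 made up 25.5 to 52.5% of the level per kb summed over the 10 receptors in BSMC, 41.5 to 62.6% in PASMC and 81.9 to 85.4% in total_SMC. Htr2a made up 13.1 to 32.7%, 15.8 to 30.8% and 2.68 to 4.41%, and Cysltr1 18.0 to 21.7%, 3.37 to 7.40% and 1.03 to 2.56%. For Htr2a and Cysltr1 the fall in share in total_SMC came with counts that overlapped with the other groups, while the sum rose from 91.5 to 175 per kb in BSMC and 268 to 338 in PASMC to 957 to 1246 in total_SMC.

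**Figure D3:**
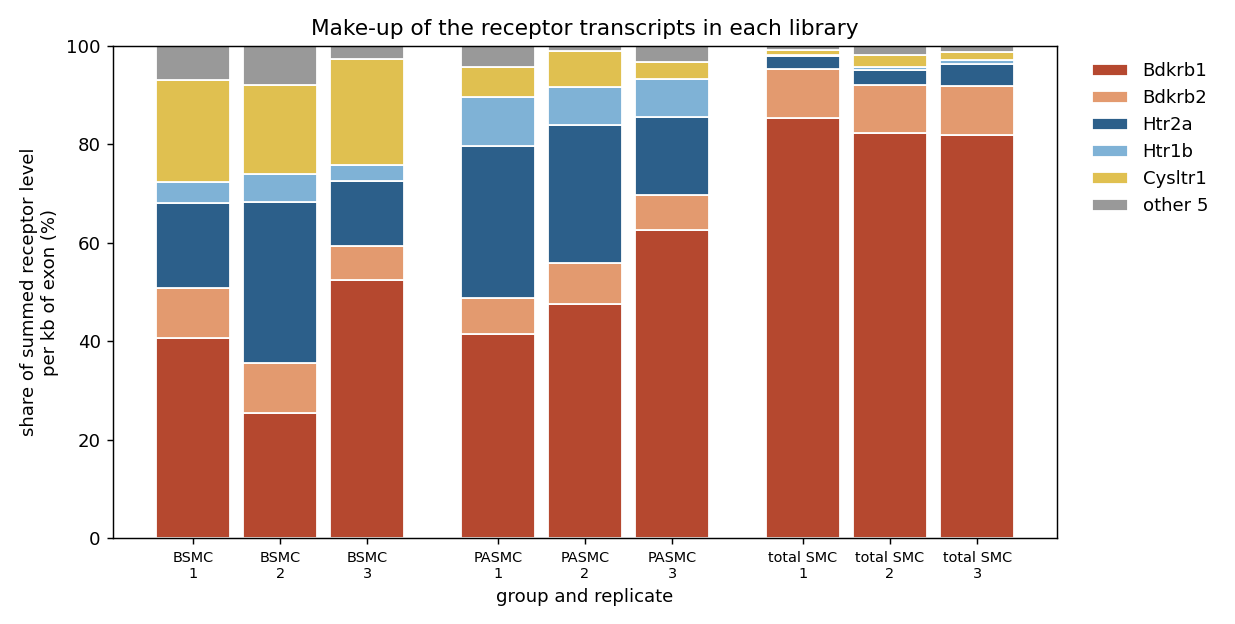
Share (%) of the level per kb of exon, summed over the 10 receptors, held by each receptor in each of the 9 libraries; the grey segment pools Hrh1, Hrh2, Htr2b, Tacr1 and Tacr2. Bdkrb1 fills 81.9 to 85.4% of the total_SMC bars and at most 62.6% of the others.

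The calls differed in how far they rested on single libraries. With each of the 9 libraries left out in turn, Bdkrb1 kept its call in every comparison and Bdkrb2 in both comparisons with total_SMC. Htr1b lost calls, and Htr2a and Bdkrb2 each gained the call between PASMC and BSMC in some fits, as given above. Htr2b gained a call between total_SMC and BSMC, and Tacr1 between total_SMC and PASMC. Cysltr1 was not called in any of these fits.

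**Figure D4:**
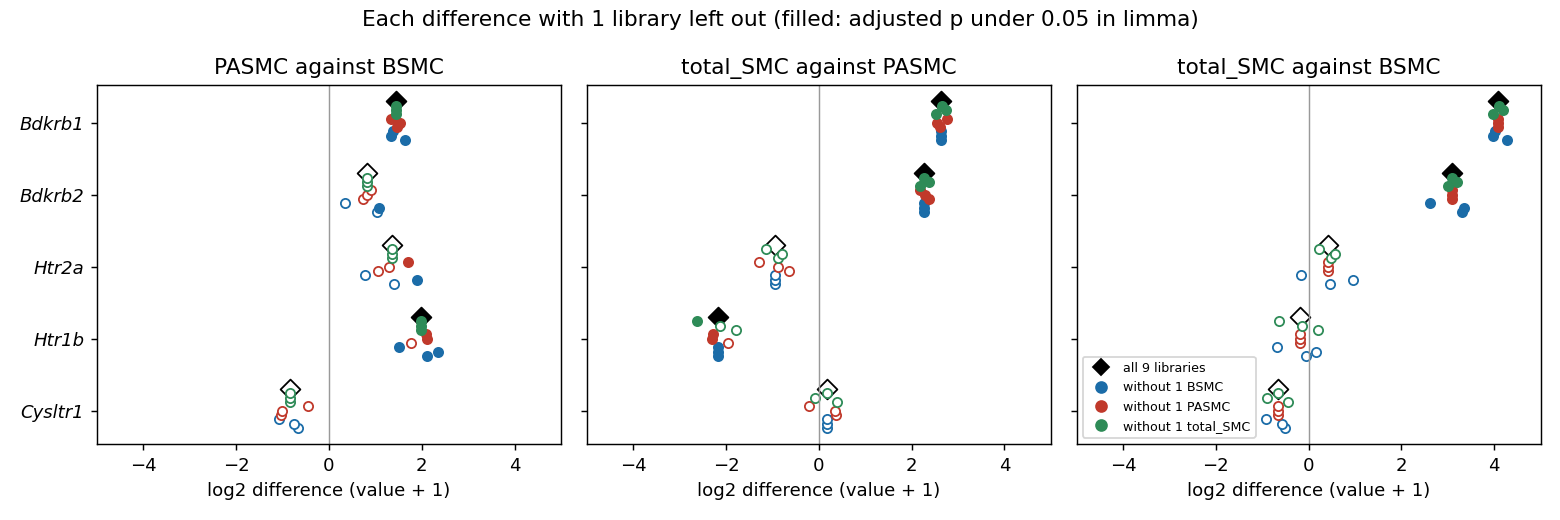
Differences on the log2(value + 1) scale for the 5 most abundant receptors with all 9 libraries (diamonds) and with 1 library left out (circles, coloured by the group of the library left out), filled for an adjusted p under 0.05 in limma. The Bdkrb1 points stay filled in all 3 comparisons, while Htr1b and Htr2a, and Bdkrb2 between PASMC and BSMC, hold both filled and open points.

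Of 19 other receptors for the same mediators that were listed, 8 were in the table and 5 were tested. PASMC against BSMC gave 0 higher and 1 lower, total_SMC against PASMC 2 higher and 0 lower, and total_SMC against BSMC 1 higher and 1 lower, with medians of -1.23, 0.92 and 1.01. With 5 genes, these counts cannot be set apart from the shares over all genes. They are named here after their values were seen. Ltb4r1, the leukotriene B4 receptor of leukocytes, was at 104, 33 and 81 in BSMC and at 3 or less in every other library. Both other groups were lower than BSMC (-5.19 and -4.52, adjusted p = 0.000263 and 0.000331 in limma), and the macrophage and monocyte sums given above moved with it. It passed the filter only through BSMC, so that among tested genes it had to differ, and it was not tested in the 3 fits that left out a BSMC library. Htr7, a Gs-coupled serotonin receptor, was at 0, 12 and 0 in BSMC, 0 in all PASMC libraries and 11, 48 and 11 in total_SMC. It was called in both comparisons of total_SMC (adjusted p = 0.0149 and 0.0355 in limma), calls lost without total_SMC replicate 2, among others (up to 0.0946 and 0.158 over the alternatives). Htr7 passed the filter only with its total_SMC values, which favours such calls among tested genes. Cysltr2, the second cysteinyl leukotriene receptor, was at 8, 9 and 24 in BSMC, 2, 9 and 0 in PASMC, with 28, 31 and 19 in total_SMC. It had a call between total_SMC and PASMC (3.09, adjusted p = 0.0189 in limma). That call was lost without PASMC replicate 1 or 3 or total_SMC replicate 1 or 2 (up to 0.0806). Cysltr2 also passed the filter only with its total_SMC values.

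Several genes that make the ligands were higher in BSMC. Of 14 listed, 12 were in the table and 8 were tested: 0 higher and 5 lower in PASMC than in BSMC (median -2.12, against 0.05 over all genes), 2 higher and 1 lower in total_SMC than in PASMC (median 0.73, against 0.03), and 0 higher and 5 lower in total_SMC than in BSMC (median -1.48, against 0.05). Over all genes, 13.2%, 9.39% and 23.7% were called higher in these comparisons, and 8.88%, 6.83% and 18.2% lower. Alox5, the lipoxygenase that starts leukotriene synthesis, was at 159, 123 and 102 in the BSMC libraries, 0, 0 and 1 in PASMC and 7, 12 and 1 in total_SMC (total_SMC against BSMC -4.42, adjusted p = 0.000522 in limma). Leukocytes are known to express Alox5, and the macrophage and monocyte sums given above ran in the same direction between BSMC and the other groups; their part in the result was not tested. Alox5 passed the filter only with its BSMC values, which favours such a call among tested genes. The same held for Ltc4s, Tac1 and Klk1, so the counts and medians of this list against BSMC were partly set by the filter. The Tac1 call between PASMC and BSMC (-2.04, adjusted p = 0.0343 in limma) was lost in 8 of 18 alternative fits. Alox5ap, the partner of Alox5, was at 267 ± 89.1, 39.3 ± 5.5 and 57.3 ± 3.5 (PASMC against BSMC -2.68, adjusted p = 9.39e-05 in limma). Hdc, which makes histamine, was at 242 ± 46.1 in the BSMC libraries, 115 ± 17.6 in PASMC and 232 ± 80.9 in total_SMC. The PASMC level was the lowest (against BSMC -1.07, adjusted p = 0.0158), a call lost without PASMC replicate 1 (0.0631). Hdc was also higher in total_SMC than in PASMC (0.96, adjusted p = 0.0287 in limma), a call lost in 5 of 19 alternative fits. Of 9 mast cell and basophil markers in the table, all but Kit were at 29 or less in every library. Mcpt8 was at 17, 3 and 29 and Fcer1a at 8, 3 and 3 in BSMC, and both were at 0 in PASMC, the direction of Hdc. In total_SMC they stayed low, at 3, 2 and 1 and at 0, 2 and 0, where Hdc did not. Mcpt4, Tpsab1 and Tpsb2 were at 0 in BSMC, and Cpa3 was at 0, 5 and 1 there against 8, 2 and 14 in PASMC. The list summed to 37.9 to 86.7 CPM in BSMC, 101 to 141 in PASMC and 123 to 134 in total_SMC, nearly all of it Kit, and its part in the Hdc result was not tested. Kng1 and Kng2, the kininogen genes, reached at most 8, and Tph1, which starts serotonin synthesis, was at 0 in BSMC and PASMC.

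Among enzymes and carriers that clear the same mediators, all those called between total_SMC and BSMC were higher in total_SMC. Of 18 listed, 17 were in the table and 15 were tested: 6 higher and 0 lower in PASMC than in BSMC (median 0.39, against 0.05 over all genes), 4 higher and 1 lower in total_SMC than in PASMC (0.90, against 0.03) and 9 higher and 0 lower in total_SMC than in BSMC (1.46, against 0.05). Over all genes, 13.2%, 9.39% and 23.7% were called higher in these comparisons, and 8.88%, 6.83% and 18.2% lower. Several of the list genes that rose encode peptidases that cleave kinins. Ace, the angiotensin-converting enzyme, which also inactivates bradykinin, was at 1491, 1717 and 1405 in the BSMC libraries, 2008, 2057 and 2079 in PASMC and 3893, 3549 and 4056 in total_SMC, without overlap, and is named after its values were seen. It was higher in total_SMC than in PASMC (0.90, adjusted p = 0.000221 in limma) and than in BSMC (1.32, adjusted p = 5.83e-06). Its smaller difference between PASMC and BSMC (0.42, adjusted p = 0.0198) was lost without BSMC replicate 1 or 3 or any PASMC library (up to 0.0685). Mme, the neutral endopeptidase that cleaves bradykinin and substance P, was at 483 ± 91.2 in total_SMC against 122 ± 23.0 in PASMC and 76.7 ± 27.5 in BSMC (1.97 and 2.69, adjusted p = 0.000668 and 3.48e-05). Dpp4, a dipeptidyl peptidase of the cell surface that cuts substance P, was at 640.3 ± 66.5 against 79.7 ± 36.6 and 103 ± 49.1 (3.11 and 2.75, adjusted p = 0.000421 and 0.000392).

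Another order was seen for Cpm, carboxypeptidase M, which removes the last arginine of kinins and so forms Bdkrb1 ligands. It was at 280, 181 and 181 in PASMC, 65, 34 and 43 in BSMC and 55, 70 and 74 in total_SMC. Cpm was higher in PASMC than in BSMC (2.17, adjusted p = 0.000493 in limma) and fell from PASMC to total_SMC (-1.65, adjusted p = 0.003), so the group with the highest Bdkrb1 was not the group with the highest Cpm. Xpnpep2, an aminopeptidase that inactivates bradykinin, was at 29, 31 and 1 in BSMC, 129, 91 and 131 in PASMC, with 505, 659 and 681 in total_SMC. These follow the order of Bdkrb1 without overlap. Xpnpep2 was higher in total_SMC than in BSMC (5.62, adjusted p = 0.000291), and its call between PASMC and BSMC (3.23, adjusted p = 0.0166) was lost without PASMC replicate 1 (0.0592). Dpep1, which converts leukotriene D4 to E4, rose in the order of Bdkrb1, at 936 ± 57.7, 2185 ± 134 and 3916 ± 339, and was called in all 3 comparisons (adjusted p = 2.33e-05, 0.000373 and 2.54e-07).

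Downstream of the receptors, Gnaq, the main Gq subunit, was at 1012 ± 49.4, 1005 ± 73.8 and 1072 ± 60.4 without a call (95% intervals of the difference -0.27 to 0.25 between PASMC and BSMC and -0.17 to 0.35 between total_SMC and PASMC). Of 16 genes of Gq signalling and calcium release, all tested, 2 were higher and 3 lower in PASMC than in BSMC, 4 higher and 0 lower in total_SMC than in PASMC, and 3 higher and 4 lower in total_SMC than in BSMC. Over all genes, 13.2%, 9.39% and 23.7% were called higher in these comparisons, and 8.88%, 6.83% and 18.2% lower. The 4 higher of 16 in total_SMC than in PASMC lay above that share. The medians were -0.13, 0.30 and -0.18, against 0.05, 0.03 and 0.05 over all genes. Gna15 and Prkcb, both called lower in PASMC than in BSMC, passed the filter only with their BSMC values, which favours such calls among tested genes. Plcb3, a phospholipase C, was at 1376 ± 437 in BSMC and 2531 ± 147 in PASMC (0.93, adjusted p = 0.00611 in limma), and Orai1, the store-operated calcium channel, was at 580 ± 53.0 and 339 ± 31.6 (-0.77, adjusted p = 0.00525). Gna14, a Gq family subunit, was at 30 ± 15.7, 32.7 ± 3.8 and 110 ± 15.7 and higher in total_SMC than in both other groups (1.72 and 1.94, adjusted p = 0.00749 and 0.00172). Of 16 genes of Gs, Gi and cAMP signalling, 2, 1 and 2 were higher and 0, 2 and 5 lower in the comparisons as ordered here (medians 0.10, -0.37 and -0.26), again near or below the shares over all genes.

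Of 14 genes that desensitize or damp such receptors, 12 were in the table and tested: 3 higher and 1 lower in PASMC than in BSMC, 3 higher and 5 lower in total_SMC than in PASMC, and 3 higher and 4 lower in total_SMC than in BSMC. Over all genes 22.1%, 16.2% and 41.9% were called. The medians were 0.05, -0.49 and -0.43, against 0.05, 0.03 and 0.05 over all genes. Arrb1, an arrestin that uncouples receptors, was at 390 ± 99.9, 715 ± 73.6 and 1145 ± 47.2, and was higher than in BSMC in PASMC (0.90, adjusted p = 0.00621 in limma) and total_SMC (1.59, adjusted p = 7.73e-05). Arrb2 ran against it, at 412 ± 21.0 in BSMC and 226 ± 40.2 in PASMC (-0.88, adjusted p = 0.00603). Rgs2, which turns off Gq, was at 2839 ± 353, 2813 ± 58.5 and 1285 ± 144, and total_SMC was below PASMC (-1.14, adjusted p = 0.000115). Rgs16 was at 189 ± 85.7 in PASMC against 27.3 ± 15.5 in BSMC and 17.3 ± 11 in total_SMC, higher than in BSMC by 2.82 (adjusted p = 0.00636), and lower in total_SMC by -3.40 (adjusted p = 0.00213). Its PASMC libraries lay above all others, as those of Htr1b did.

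For the 3 receptors with the highest mean over all libraries, the genes of most similar pattern were sought among 10281 genes with a mean of at least 100, predicted genes and pseudogenes left out, by Pearson's r of log2(value + 1) over the 9 libraries. For Bdkrb1 these were Ptges, the inducible prostaglandin E synthase (r = 0.998), Il33, an alarmin cytokine (0.996), and Clec11a, a secreted lectin (0.995). Ptges was at 173, 131 and 118 in the BSMC libraries, 309, 318 and 344 in PASMC and 1500, 1206 and 1519 in total_SMC. For Bdkrb2 they were Mindy4 (0.992), Uap1 (0.990) and Tmod3 (0.989). For Htr2a they were Asph (0.980), Gucy1a1, a subunit of the nitric oxide receptor (0.974), and Dcbld2 (0.972), and Gucy1a1 was at 3587, 4829 and 2598 in the BSMC libraries, 5378, 4725 and 3865 in PASMC and 3323, 3411 and 4062 in total_SMC. In all, 191 genes reached an r above 0.95 with Bdkrb1, 128 with Bdkrb2 and 7 with Htr2a, in 9 libraries that share 3 groups, so these values describe a shared order of libraries and no more.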

How the data were processed

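The authors' deposited table gives, per gene, read counts normalized between libraries and rounded to whole numbers, treated here as a score rather than as raw counts. Per the submitters' processing notes the genome build was mm39 and the tools included featureCounts 2.0.4, Picard 3.1.1, STAR 2.7.11a and DESeq2 1.36.0, with no role given. Per the labels' protocols, sorted cells gave at most 10 ng RNA for SMART-Seq v4 libraries. Depth was estimated from the spacing of whole values (searched from 0.7 to 1.5 per read).

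Values were tested as log2(value + 1) in limma 3.58.1 (R 4.3.3), with 1 fit of the 3 group means over all 9 libraries, moderated with trend and robust options. Genes needed a value of 10 in 3 libraries (15647 of 21049), and Benjamini-Hochberg adjustment covered all tested genes. The procedure was tested on simulated data. Exon lengths came from GENCODE vM21 for 96.7% of genes. The members and lists were chosen with earlier results of these data known. Named list genes were up to 2 per direction with the largest change, a mean of 100 and no overlap; Dpep1, Gnaq, Kng1, Kng2 and Tph1 were added after their values were seen. Filters, pseudocounts, scalings, fits and left-out libraries were varied. The result of 1 gene list is not reported here.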

Additional observations from a re-analysis of the deposited data

How the results depend on the processing

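Bdkrb1 in all 3 comparisons, and Bdkrb2 in both comparisons with total_SMC, kept their direction and call under all 19 alternative fits. The number of receptors called ranged from 1 to 4 for PASMC against BSMC when 1 library was left out, from 2 to 4 for total_SMC against PASMC and from 2 to 3 for total_SMC against BSMC. With array weights, which down-weight libraries far from their group, 5 receptors were called for total_SMC against PASMC; Htr2a (adjusted p = 0.0354 in limma) and Htr2b (0.0293) were the additions, and the cause was not tested. Over all genes, leaving out 1 library gave 1701 to 6364 calls for PASMC against BSMC (3451 with all libraries; 6364 without BSMC replicate 2), 1597 to 3205 for total_SMC against PASMC (2539) and 4254 to 8056 for total_SMC against BSMC (6553). Fitting only the 2 groups compared gave 1926 and 4345 calls in the first and second comparison, and array weights gave 5082 in the second; the cause was not tested.

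Differences that turned direction were all without a call. Htr2b between PASMC and BSMC was -0.0048 with a pseudocount of 5, -0.29 without BSMC replicate 1 or 3, and -0.17 without PASMC replicate 3, and reached 1.71 without BSMC replicate 2. Cysltr1 between total_SMC and PASMC was -0.21 without PASMC replicate 3 and -0.07 without total_SMC replicate 2, and at most 0.39. Between total_SMC and BSMC, Htr1b was 0.15 with array weights, 0.16 without BSMC replicate 2 and 0.20 without total_SMC replicate 1, and at lowest -0.68 without BSMC replicate 3. Htr2a was -0.16 without BSMC replicate 3 and up to 0.96 without BSMC replicate 2. Hrh1 was -0.24 with array weights, -0.64 without BSMC replicate 3 and up to 2.21 without BSMC replicate 1.

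In a fit with a replicate block (the number in the titles), 2, 3 and 2 receptors and 3287, 2286 and 6350 genes were called in the 3 comparisons, and no receptor's call changed. Same-numbered libraries correlated at -0.12 to 0.14 in their deviations from the group means, and differently numbered ones at -0.19 to 0.14. These values cannot show whether libraries of the same number shared a sort or preparation. The share of calls that were higher moved from 59.8 to 49.3% with quantile normalization and 46.3% with equal totals and a pseudocount of 0.1 for PASMC against BSMC (2062 higher and 1389 lower, against 2017 and 2072, and 1803 and 2095), and from 56.6 to 44.3 and 42.8% for total_SMC against BSMC (3706 and 2847, against 3217 and 4049, and 3036 and 4058), where equal totals with that pseudocount moved the median gene to -0.11; scaling and pseudocount were changed together. By values not divided by exon length, 12 of 30 ranks within the groups were as given. Depth limits Hrh1, Hrh2, Htr2b, Tacr1 and Tacr2, each at 0 in at least 2 libraries, where the floor of 3 reads is 2.59 to 3.84.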
